A study of Oryza sativa with 12 samples.

Results

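The response of wild-type rice florets to growth at low temperature was examined in H1493, the unmodified variety of the study. The comparison used 6 of the 12 arrays of the series, taken by their labels: 3 arrays of H1493 grown at high temperature (H1493HT) and 3 of H1493 grown at low temperature (H1493LT). Meiosis-stage inflorescences were harvested from field-grown plants, in July at Wuhan at a daily average of 28 °C for H1493HT and in January at Lingshui at 20 °C for H1493LT. The H1493LT plants also grew under shorter days, so temperature, day length, site and season cannot be told apart. Each array held RNA of a separate biological replicate of mixed floret tissue, and whether a replicate combined several plants is not given in the sources used here. The other 6 arrays are of TGMS-Co27, a line derived from H1493 that carries a Ugp1 transgene in which Ugp1 is cosuppressed, grown in the same conditions (Co27HT and Co27LT). They entered the estimate of the spread and the comparison of both lines. The paper describes TGMS-Co27 as male sterile at high temperature and fertile at low temperature, and H1493 as fertile in both conditions.

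In plants, cool growth and short days act on many of the same genes. A circadian clock of morning genes such as LHY and evening genes such as GI and PRR1 measures the day, phytochromes read red light, and both feed into the control of flowering. Cold induces transcription factors of the DREB1 (CBF) family and protective dehydrins, whereas warmth induces small heat shock proteins, which keep other proteins from aggregating. Temperature also changes how fast cells grow and divide, and in young florets it bears on meiosis and on the tapetum, the anther tissue that feeds developing pollen.

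Each value below is a log2 signal of a probe set, a group of short probes for a transcript, so that a difference of 1 is a 2-fold change. A probe set is called bright where its log2 signal averaged 6 or more across the 12 arrays, and others are dim and lie near background. Of 57258 probe sets, 24891 were bright. Across bright probe sets, the correlation was 0.986 to 0.987 among the H1493HT arrays, 0.989 to 0.990 among the H1493LT arrays and 0.886 to 0.896 between them, and between 44.5 and 45.9% of all probe sets were called present on each array. The floral organ genes SPW1, MADS1, MADS3, MADS4, MADS58 and DL and the meiotic genes MER3, MSH5, PAIR2 and DMC1 were called present on all 12 arrays. The control probe sets moved with the groups to some extent. The log2 difference between the 3′ and 5′ ends of an actin control was 3.06 to 3.20 in H1493HT and 2.28 to 2.87 in H1493LT, that of ubiquitin was -0.63 to -0.52 and -0.34 to -0.27, and that of a second actin control was 2.62 to 2.65 and 2.70 to 2.77. That of cyclophilin was 0.865 to 1.03 and 0.44 to 0.82, while the groups of GAPDH overlapped. Of the spike-in controls, BioB was 7.84 to 7.95 in H1493HT and 7.41 to 7.73 in H1493LT. BioDn was 12.75 to 13.06 and 12.57 to 12.64, and CreX was 14.47 to 14.66 and 14.27 to 14.42. The groups of BioC overlapped. The part of all these controls in the results was not tested.

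Gene expression in florets differed widely between the growth conditions. A probe set was called when its Benjamini-Hochberg adjusted p from limma was under 0.05 and its difference at least 2-fold. Among bright probe sets, 2488 showed higher signals in H1493LT (10.0%) and 2422 lower signals (9.73%), or 19.7% in all. Without the 2-fold limit, 13524 bright probe sets (54.3%) passed the adjusted p. The groups did not overlap in 4908 of the 4910 called probe sets, and in 72.2% of all bright ones. Large changes were more often decreases: 335 bright probe sets were at least 4-fold higher and 592 at least 4-fold lower, and at 16-fold there were 16 and 58. These counts used the deposited scaling without a floor and were not repeated under the alternatives. Signals near background make some sizes inexact: 298 higher probe sets averaged below 6 in H1493HT and 403 lower ones in H1493LT. The split of all calls into higher and lower depended on the scaling. With each array centred on its median over all probe sets, which moved the median bright difference from 0.06 to 0.24, 3562 were higher and 1811 lower (66.3% higher in place of 50.7%). With centring on bright probe sets it was 2137 and 2732. By gene, represented by the probe set of highest mean signal, 1321 of 14592 bright genes were higher (9.05%) and 1484 lower (10.2%), or 19.2% in all, with a median difference of 0.05 on the log2 scale. An adjusted p under 0.05 at any size was found for 58.6% of these genes, and 76.9% had groups that did not overlap. These shares are the background for every gene list below. Of the called bright probe sets, 1591 carry no gene in the annotation and are not named. As whole florets were used, fewer cells of a type and less RNA per cell cannot be told apart.

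**Figure D1:**
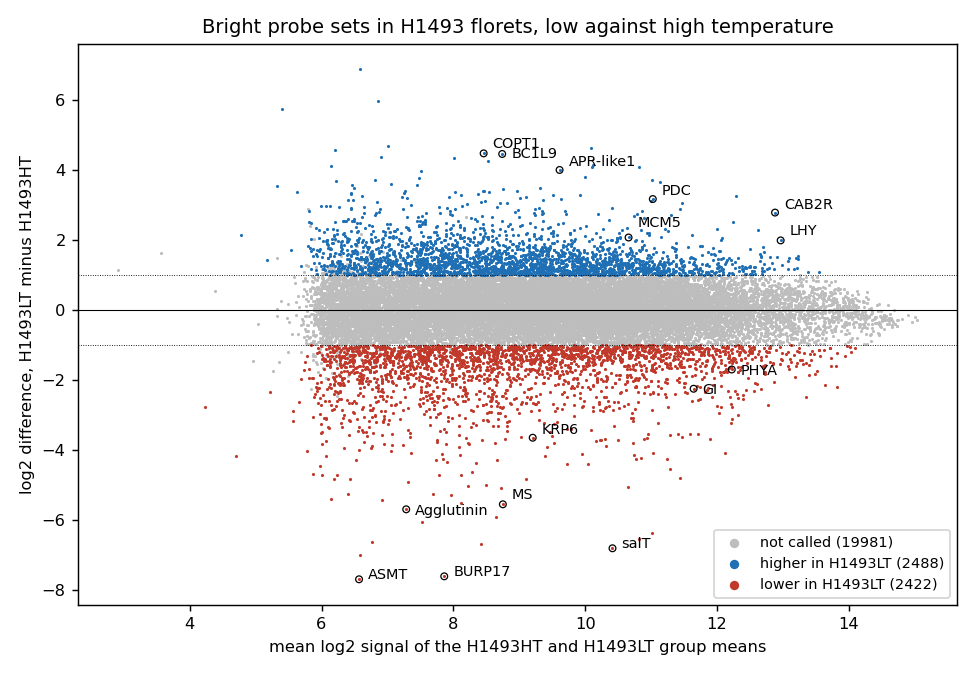
Log2 difference between H1493LT and H1493HT (vertical axis) against the mean log2 signal of both groups (horizontal axis) for 24891 bright probe sets. Called probe sets are in color, dotted lines mark a 2-fold difference, and the decreases of ASMT, BURP17 and salT reach further from 0 than the increases of COPT1, BC1L9 and APR-like1.

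Among named genes, the largest increases were those of COPT1, a copper transporter gene, of BC1L9, which encodes a COBRA-like protein of the cell wall, and of APR-like1, a gene related to sulfate reduction. The log2 signals of COPT1 were 6.18, 6.35 and 6.13 on the H1493HT arrays and 10.72, 10.68 and 10.70 on the H1493LT arrays, a 22.3-fold difference (log2 4.48, standard error 0.14, limma adjusted p = 2.1e-07). Those of BC1L9 were 6.77, 6.34 and 6.42 and then 10.925, 10.997 and 10.994 (log2 4.46, standard error 0.26, limma adjusted p = 3.3e-06). The low-temperature arrays of both genes lay far above every high-temperature array, though only genes whose groups did not overlap were eligible. A second, brighter probe set of BC1L9 gave 4.08. APR-like1 had 7.39, 7.57 and 7.87 in H1493HT and 11.63, 11.57 and 11.64 in H1493LT (log2 4.01, standard error 0.14, limma adjusted p = 3.1e-07), and another probe set of it gave 3.81.

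Other strongly raised genes had roles in metabolism, protein folding and transcription. The DnaK family gene LOC_Os03g16860, an HSP70-type chaperone gene by its annotation, had signals of 9.43, 9.13 and 9.36 in H1493HT and 12.966, 12.9998 and 12.952 in H1493LT (log2 3.67). PDC, a pyruvate decarboxylase gene of ethanol fermentation, had 9.57, 9.26 and 9.48 and then 12.64, 12.59 and 12.61 (log2 3.17). The 6 values of both genes formed separate groups, which the choice of these genes required, and the H1493LT arrays were the closer together. PAL06, a phenylalanine ammonia-lyase gene at the entry to phenylpropanoid synthesis, rose by 3.59 from signals near background in H1493HT. The SOUL heme-binding protein gene LOC_Os01g63210 rose by 3.46, the heat stress factor gene HSFB2A by 3.37, the trehalose-6-phosphate phosphatase gene TPP1 by 3.14, the bZIP factor gene BZIP52 by 2.95, LOC_Os04g41340, annotated as a 4-nitrophenylphosphatase gene, by 2.95 and the photosystem II gene PSB28 by 2.92 (limma adjusted p at most 2.2e-05 for these). Both LOC_Os02g48770, a putative carboxyl methyltransferase gene (log2 3.96), and LOC_Os08g03450, a ribosomal protein L37 gene (2.94), were below 6 on average in H1493HT, so the sizes are not exact. LOC_Os10g37840, a CCB2 gene, was listed with 3.16 but was called present on 0 of the 12 arrays.

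The largest decreases were those of ASMT, BURP17 and salT. ASMT, an acetylserotonin O-methyltransferase gene of melatonin synthesis, had 10.41, 10.34 and 10.48 in H1493HT and 2.65, 1.20 and 4.34 in H1493LT (log2 -7.68, standard error 0.96, limma adjusted p = 0.00029). BURP17, a gene of the BURP domain family, had 11.56, 11.66 and 11.76 and then 2.72, 5.12 and 4.35 (log2 -7.60, standard error 0.52, limma adjusted p = 8.3e-06). Both were well measured in H1493HT and at background in H1493LT, with 6 of the 12 arrays called present, so the sizes are not exact. The salt-induced lectin gene salT was measured in every array: its signals were 13.77, 13.83 and 13.84 in H1493HT and 7.07, 6.65 and 7.32 in H1493LT, a 111-fold difference (log2 -6.80, standard error 0.15, limma adjusted p = 5.4e-08). A second probe set of salT gave -6.37.

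The Agglutinin gene, of another lectin, fell by 5.68, GER2, a germin-like protein gene, by 5.28 and CHT1, a chitinase gene, by 5.24. C4, an anther-specific gene expressed in the tapetum, had signals of 11.16, 11.26 and 11.34 in H1493HT and 6.50, 5.86 and 6.19 in H1493LT (log2 -5.07, standard error 0.20, limma adjusted p = 5.8e-07). The gene named MS in the annotation fell by 5.54, the peroxidase gene LOC_Os06g35520 by 4.82, the putative carboxyl methyltransferase gene LOC_Os06g13560 by 4.81, the auxin-repressed protein gene LOC_Os09g26620 by 4.22, SK3 by 4.15, the homeodomain-leucine zipper gene HOX24 by 4.11 and the 1-Cys peroxiredoxin gene R1C-Prx by 4.06. With PP2C68, described below, these complete the 15 largest decreases. Agglutinin, GER2, CHT1, MS, LOC_Os06g13560, PP2C68, HOX24 and R1C-Prx averaged below 6 in H1493LT, so that their sizes and their order are not exact. Genes whose groups overlapped were not eligible for these 15.

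Of the clock genes, LHY and PRR37 were higher in H1493LT and GI, PRR1 and PRR95 lower. Of 7 bright clock genes, 2 were higher and 3 lower, with a median of -1.07 against 0.05 over all bright genes. LHY, the morning MYB factor, had 12.01, 11.92 and 11.97 in H1493HT and 13.97, 13.99 and 13.93 in H1493LT, a 3.98-fold increase (log2 1.99, standard error 0.09, limma adjusted p = 9.8e-07). GI, an evening gene that links the clock to flowering, had 12.86, 12.77 and 12.66 and then 10.51, 10.52 and 10.54, a 4.73-fold decrease (log2 -2.24, standard error 0.09, limma adjusted p = 6.6e-07). In both genes the gap between the groups was far larger than the range within either. The pseudo-response regulators moved in both directions. PRR37 rose by 1.24, from 9.52, 9.19 and 9.39 to 10.55, 10.78 and 10.49, while PRR1, the rice counterpart of the evening gene TOC1, fell by 1.32 and PRR95 by 1.07. PRR73 had 0.31 (limma adjusted p = 0.12) and PCL1 -1.41 (adjusted p = 0.14, called present on 6 of the 12 arrays). The hour of harvest is not given in the sources used here, and the levels of these genes change through the day.

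PHYA and SE5, genes of a phytochrome and of its chromophore, were lower in H1493LT. The signals of PHYA, which encodes the light-labile phytochrome, were 13.05, 13.10 and 13.06 in H1493HT and 11.39, 11.34 and 11.40 in H1493LT, a 3.23-fold decrease (log2 -1.69, standard error 0.07, limma adjusted p = 9.1e-07), and another probe set gave -2.07. SE5, a heme oxygenase gene needed to make the phytochrome chromophore, had 11.30, 11.27 and 11.31 and then 9.29, 9.57 and 9.29 (log2 -1.91). All 3 low-temperature arrays of each gene were below the high-temperature ones, and nearly all called probe sets had groups that did not overlap. PHYC had -0.74 and PHYB -0.48, both with a limma adjusted p of at most 0.0011 but under the 2-fold limit. The blue light receptor gene PHOT1A had -1.05 (limma adjusted p = 0.046), which was no longer called when any H1493 array other than H1493LT replicate 2 was left out (it was -0.62 without H1493LT replicate 3), and PHOT2 had 0.06 with groups that overlapped. In all, 2 of 5 bright photoreceptor genes were lower, and 1 without those arrays. Of 6 bright flowering genes, SE5 and MFT1, a gene of the family of the florigen Hd3a, were lower. MFT1 fell by 2.10, from 9.19, 8.83 and 9.07 to 6.75, 7.06 and 6.98. Hd1, Hd3a and DTH8, which control heading date, were dim in these florets.

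The light-harvesting genes CAB2R and LHCP were higher in H1493LT. CAB2R, a chlorophyll a/b-binding protein gene, had 11.25, 11.52 and 11.68 in H1493HT and 14.22, 14.33 and 14.28 in H1493LT, a 6.91-fold increase (log2 2.79, standard error 0.12, limma adjusted p = 9.8e-07). LHCP, another gene of this family, had 11.51, 11.68 and 11.68 and then 13.41, 13.32 and 13.39 (log2 1.75). These were the called ones among 4 bright genes of light harvesting and the photosystems, and the photosystem I genes PSAG and PSAH had 0.65 and 0.37. Of 6 bright chlorophyll synthesis genes, PORA and PORB, which encode protochlorophyllide reductases, rose by 1.13 and 1.07, and none fell. The count was 1 without H1493HT replicate 3. PORA had 10.998, 11.147 and 11.027 and then 12.17, 12.19 and 12.19. The other members of the list had values from 0.19 for CHLH to 0.93 for CAO. The leaf marker RBCS-C, which encodes the small subunit of Rubisco, went the other way, with 10.27, 10.26 and 10.27 in H1493HT and 9.27, 8.90 and 9.25 in H1493LT (log2 -1.13), and other probe sets of it gave -1.94 and 0.08. The Rubisco activase gene RCA had 0.54 (limma adjusted p = 0.067), and other bright probe sets of it gave 0.74, 0.91 and 0.96, the last 2 with an adjusted p under 0.05. Over the 3 leaf markers, of which RBCS1 is dim, the summed linear signal was 1555 to 1716 in H1493HT and 1018 to 1235 in H1493LT, and its part in the result was not tested.

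**Figure D2:**
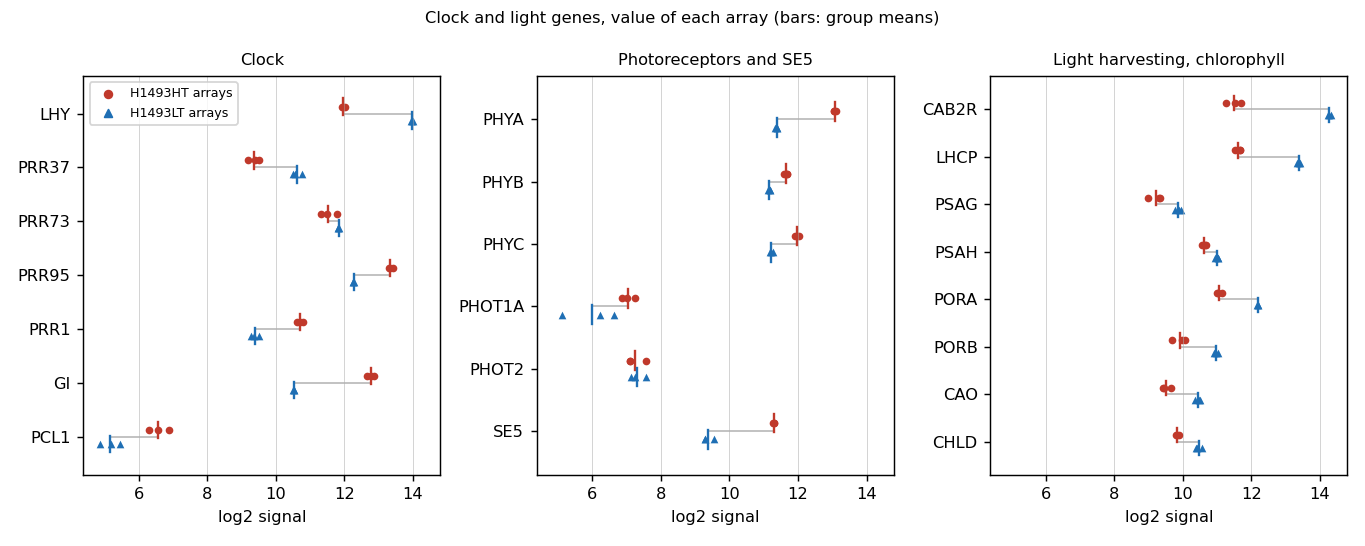
Log2 signal of each H1493HT array (circles) and H1493LT array (triangles) for clock genes, photoreceptor genes with SE5, and genes of light harvesting and chlorophyll synthesis, with short bars at the group means. LHY, CAB2R and PORA lie to the right in H1493LT, and GI, PHYA and SE5 to the left, while the groups of PHOT2 overlap.

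Genes known for cold and drought responses moved in both directions, and more of them were lower in H1493LT. Of 13 bright genes of the cold-response list, 3 were higher (23.1%) and 7 lower (53.8%), with a median of -1.14. The 3 higher ones were TPP1, DHN1 and DREB1A. DREB1A, a cold-induced transcription factor gene, had 6.83, 7.25 and 7.43 in H1493HT and 9.43, 9.49 and 9.52 in H1493LT (log2 2.31, standard error 0.16, limma adjusted p = 7.7e-06). The dehydrin gene DHN1 had 11.46, 11.47 and 11.49 and then 13.80, 13.75 and 13.76, a 4.91-fold increase (log2 2.30), and TPP1 had 8.02, 7.60 and 7.72 and then 10.92, 10.92 and 10.92. In these genes every H1493LT array was above every H1493HT array, and nearly all called probe sets had groups that did not overlap. In contrast, DREB1B, a relative of DREB1A, fell from 8.25, 8.34 and 8.24 to 5.78, 6.64 and 6.60 (log2 -1.94, standard error 0.21, limma adjusted p = 0.00012).

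The dehydrin genes rab25, RAB16B, RAB21 and RAB16C fell. The signals of rab25 were 9.87, 10.02 and 10.04 in H1493HT and 6.85, 6.91 and 6.36 in H1493LT (log2 -3.27, standard error 0.31, limma adjusted p = 5.4e-05). RAB16B had 11.40, 11.37 and 11.44 and then 8.93, 8.86 and 8.95 (log2 -2.49), RAB21 fell by 1.70 and RAB16C by 1.14, the last with 3 of the 12 arrays called present. Of the regulators on the list, MYBS3 fell by 1.36 and SNAC2 by 1.18. TPP7, a trehalose-6-phosphate phosphatase gene, and MYB4 had 0.19 and 0.40, and DREB1E had -0.76. With centring on all probe sets, 5 genes of the list were lower. RAB16 and rab genes are also induced by abscisic acid, as are several of the genes described next.

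Of 23 bright genes of the abscisic acid list, 9 were lower (39.1%) and 1 higher, with a median of -0.85. PP2C68, which encodes a clade A protein phosphatase that restrains abscisic acid signaling and is itself induced by the hormone, had 8.60, 8.70 and 8.67 in H1493HT and 4.60, 4.60 and 3.97 in H1493LT (log2 -4.26, standard error 0.22, limma adjusted p = 1.9e-06). The related PP2C30 had 11.45, 11.56 and 11.49 and then 8.66, 8.70 and 8.84, a 6.81-fold decrease (log2 -2.77). PP2C68 reached background at low temperature and PP2C30 did not. PP2C08, PP2C51 and PP2C09 fell by 1.96, 1.94 and 1.34, whereas PP2C53 of the same clade had 0.31. The bZIP factor gene ABF2 fell by 1.59, the receptor gene PYL11 by 1.55 and the kinase gene SAPK10 by 1.46. Of the genes for hormone breakdown, ABA8OX2 fell from 13.29, 13.34 and 13.32 to 10.97, 10.98 and 11.11 (log2 -2.30, standard error 0.09, limma adjusted p = 4.7e-07) and ABA8OX1 rose from 9.54, 9.55 and 9.52 to 10.90, 10.92 and 10.80 (log2 1.34). The other SAPK genes had values between -0.86 and 0.96. The count of 9 lower genes held in each alternative tried except that without probe sets that can detect several genes, where it was 8. Of the seed storage protein genes, GLB, a globulin gene, was the called one of 3 bright among 11 matched, at -1.03 (under the limit without H1493LT replicate 3), and another probe set of the glutelin gene GLUA-2 gave 1.73. The summed linear signal of the 11, of which 8 were dim, was 2610.0 to 2758 in H1493HT and 1308 to 1545 in H1493LT. Most of this sum came from GLB. Its log2 signals were 11.18, 11.08 and 11.17 in H1493HT and 10.14, 10.24 and 9.95 in H1493LT. The part of the seed storage genes in the result was not tested.

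**Figure D3:**
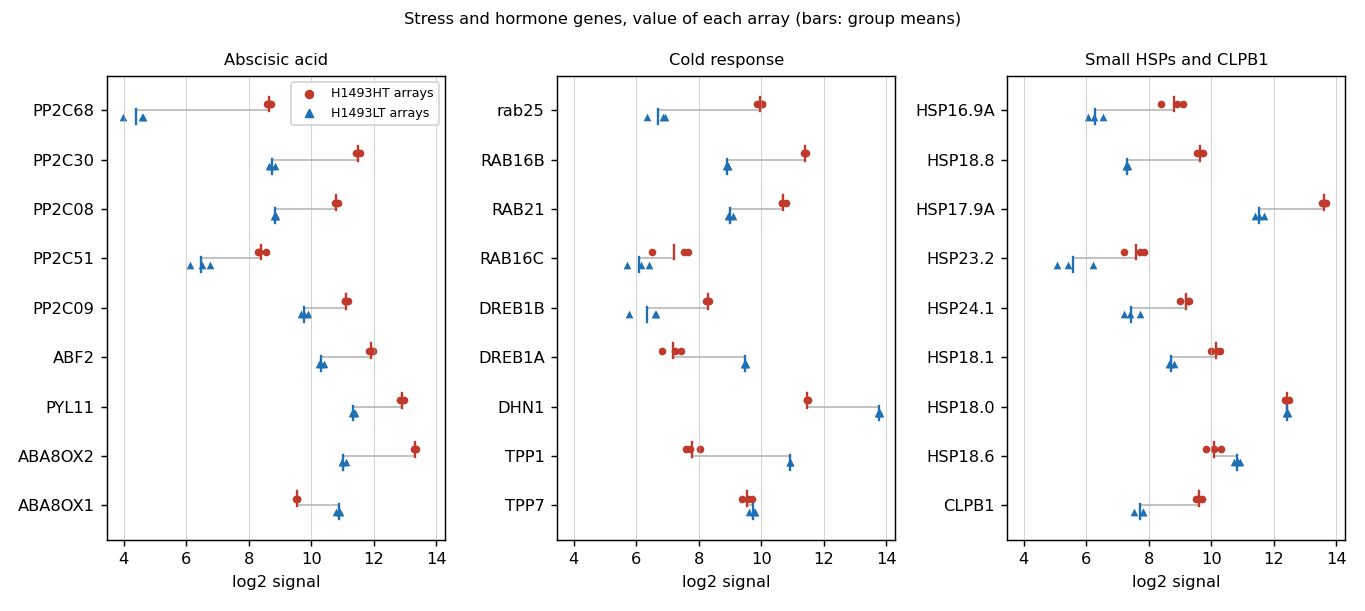
Log2 signal of each H1493HT array (circles) and H1493LT array (triangles) for genes of abscisic acid, cold response and small heat shock proteins with CLPB1, with short bars at the group means. Most genes lie to the left in H1493LT, DREB1A, DHN1, TPP1 and ABA8OX1 lie to the right, and the groups of HSP18.0 and TPP7 overlap.

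Of 15 bright small heat shock protein genes, 6 were lower (40%) and 0 higher, with a median of -0.55, and 4 of 19 were dim. HSP17.9A, a cytosolic member and the brightest, had 13.53, 13.67 and 13.64 in H1493HT and 11.39, 11.52 and 11.69 in H1493LT, a 4.24-fold decrease (log2 -2.08, standard error 0.11, limma adjusted p = 1.8e-06). HSP16.9A had 8.39, 9.11 and 8.91 and then 6.07, 6.25 and 6.53 (log2 -2.52), and HSP18.8 fell by 2.36, HSP23.2 by 2.02, HSP24.1 by 1.74 and HSP18.1 by 1.45. In these 6 genes the groups did not overlap, as in nearly all called probe sets. HSP18.0 was bright in both groups, at 12.36, 12.50 and 12.40 and then 12.40, 12.41 and 12.45 (log2 -0.0012, limma adjusted p = 0.995), though other probe sets of it gave 1.36 and 0.04. HSP17.7 and HSP17.9B also had groups that overlapped, and HSP26.2 and HSP18.6 had 0.35 and 0.76.

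Among larger chaperones, CLPB1, the cytosolic HSP100 that resolves aggregates, was the called gene of 7 bright ones. It had 9.59, 9.72 and 9.52 in H1493HT and 7.81, 7.82 and 7.53 in H1493LT (log2 -1.89, standard error 0.13, limma adjusted p = 1e-05). The organelle members CLPB-C and CLPB-M had 0.46 and 0.49, the HSP90 genes HSP81-1, HSP81-2 and HSP81-3 had 0.59, -0.67 and -0.33, and BIP1 of the endoplasmic reticulum had 0.56, all with a limma adjusted p under 0.05 and under 2-fold. Other bright probe sets of HSP81-3 gave -0.86, -1.14 and -1.68, the last 2 past the 2-fold limit. The median of this list, 0.46, was -0.11 without probe sets that can detect several genes.

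Heat stress transcription factor genes split evenly, with 3 higher and 3 lower of 17 bright. HSFA2C had 9.46, 9.42 and 9.38 in H1493HT and 11.71, 11.72 and 11.69 in H1493LT, a 4.87-fold increase (log2 2.28, standard error 0.08, limma adjusted p = 3.5e-07), while a dimmer probe set of the gene gave 1.36 (adjusted p = 0.064). HSFB2A had 6.71, 5.86 and 6.46 and then 9.68, 9.71 and 9.74, and HSFB2C rose by 1.19. Of the class C genes, HSFC1B fell from 9.987, 10.002 and 10.141 to 6.37, 5.82 and 6.22 (log2 -3.91, standard error 0.16, limma adjusted p = 6.3e-07) and HSFC2A by 2.79. HSFA3 fell by 1.31. HSFA2E, with -0.97, was just under the 2-fold limit, and HSFA9, HSFA4D, HSFB1 and HSFA4B had values between -0.10 and 0.05.

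Of 29 bright genes of DNA replication, 13 were higher (44.8% against 9.05% of all bright genes) and 0 lower, with a median of 0.79. All 6 subunits of the MCM helicase, which unwinds DNA at the replication fork, were among them. MCM5 had 9.57, 9.61 and 9.69 in H1493HT and 11.77, 11.66 and 11.65 in H1493LT, a 4.22-fold increase (log2 2.08, standard error 0.08, limma adjusted p = 4.4e-07). MCM4 had 9.91, 9.77 and 9.93 and then 11.85, 11.86 and 11.84 (log2 1.99). MCM6, MCM2, MCM3 and MCM7 rose by 1.81, 1.78, 1.61 and 1.24. MCM9, a relative outside the helicase, had 0.58 (adjusted p = 0.087).

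Other parts of the replication machinery were raised in part. RPA70b and RPA32, subunits of the protein that coats single-stranded DNA, rose by 1.75 and 1.73, while their paralogs RPA70a and RPA32-2 had 0.13 and -0.03 with groups that overlapped. The sliding clamp gene PCNA had 11.19, 11.32 and 11.22 and then 12.52, 12.50 and 12.53 (log2 1.27, standard error 0.09, limma adjusted p = 7.6e-06). The polymerase delta genes OspolD1 and OspolD2 rose by 1.38 and 1.25, and the origin recognition genes ORC3 and ORC1 by 1.13 and 1.03, while ORC4 had -0.18. The clamp loader genes RFC1 to RFC5 had values from -0.09 to 0.80, none called. The 2 lowest values of the list were -0.55 for FEN1B and -0.38 for RPA32-3. Under the alternatives tried, 12 or 13 genes of the list were higher.

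Of 8 bright mitotic genes, CYCB2-2, CYCB2-1 and CDKB2-1 rose by 1.50, 1.15 and 1.01, and the other values ran from 0.22 for CYCA1-4 to 0.99 for CYCA2-1 (median 0.91). With centring on all probe sets, 5 of the 8 were higher. CDKB2-1, a plant-type mitotic kinase gene, had 11.53, 11.54 and 11.54 in H1493HT and 12.52, 12.55 and 12.54 in H1493LT (standard error 0.08, limma adjusted p = 2.4e-05). Of 14 bright D-type cyclin and inhibitor genes, which act at entry into the cycle, CYCD3-1 rose by 1.23 and CYCD4-1 fell by 1.19. KRP6, an inhibitor of cyclin-dependent kinases, had 10.998, 10.932 and 11.142 and then 7.43, 7.57 and 7.15, a 12.5-fold decrease (log2 -3.64, standard error 0.17, limma adjusted p = 1.2e-06). The other inhibitor genes KRP4, KRP5, KRP1 and EL2 had values between -0.49 and -0.04.

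Small numbers of floral and reproductive genes were called, at shares below or above those of all bright genes. Of 20 bright floral organ identity genes, MADS3, a stamen and carpel gene, was lower, at 8.84, 8.83 and 8.81 in H1493HT and 7.86, 7.63 and 7.78 in H1493LT (log2 -1.07, standard error 0.13, limma adjusted p = 0.0003), which is 5% against 10.2% of all bright genes. Its paralog MADS58 had 0.04, MADS1 -0.07, SPW1 -0.58 and MADS4 -0.64, while MADS22, APO2 and DL had 0.69, 0.68 and 0.56. The median of the floral organ list was 0.03. Of 13 bright meiosis genes, 2 were higher (15.4% against 9.05% of all bright genes), SPO11-3 and MER3. SPO11-3, a homolog of the enzyme that makes meiotic breaks, had 8.34, 7.78 and 7.44 and then 9.69, 9.54 and 9.33 (log2 1.66, standard error 0.22, limma adjusted p = 0.00035). SPO11-4 of the same family had 0.90, under the 2-fold limit. MER3, a crossover helicase gene, had 7.36, 6.58 and 6.84 and then 7.91, 7.99 and 8.03 (log2 1.05). Without H1493HT replicate 2, 1 meiosis gene was higher. PAIR2 and DMC1 had 0.27 and 0.06, and HEI10 had -0.89. The summed linear signal of MER3, MSH5, PAIR2 and DMC1 was 2221 to 2692 in H1493HT and 3102 to 3344 in H1493LT. Of 12 bright genes of the tapetum and pollen wall, C4 and CYP703A3, a cytochrome P450 gene of sporopollenin synthesis, were lower. That is 16.7% against 10.2% of all bright genes. CYP703A3 had 8.09, 8.14 and 8.72 and then 7.21, 7.05 and 7.53 (log2 -1.06, standard error 0.25, limma adjusted p = 0.012), and it was under the 2-fold limit without H1493HT replicate 3 or H1493LT replicate 2 (-0.86 and -0.95). TDR, a tapetum regulator, had -0.59 (adjusted p = 0.03). On the same list as C4, MIL2 had -0.87 and MTR1 0.83, both under the 2-fold limit, and the list median was -0.22. The part of a differing mix of stages or tissues in these values was not tested.

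Hormone genes other than those of abscisic acid changed in both directions. Of 46 bright auxin genes, 8 were higher (17.4%) and 7 lower (15.2%). The auxin response factor genes ARF10, ARF3, ARF12, ARF16 and ARF9 rose by 1.87, 1.38, 1.19, 1.12 and 1.07. The share called among all bright ARF genes was not counted. The Aux/IAA repressor genes were divided: IAA7 had 7.99, 8.13 and 8.50 in H1493HT and 9.98, 10.07 and 10.03 in H1493LT (log2 1.82), whereas IAA18 had 10.55, 10.32 and 10.41 and then 8.71, 8.46 and 8.77 (log2 -1.78). IAA25, IAA1 and IAA24 also fell, as did the transport genes PIN4 and OSPIN10a. Of 25 bright cytokinin genes, 7 were higher (28%) and 6 lower (24%). The type-A response regulator genes RR9 and RR1, which cytokinin induces, had 6.33, 6.09 and 6.41 and then 8.74, 8.62 and 9.02 (log2 2.52), and 7.49, 6.98 and 7.75 and then 9.53, 9.63 and 9.43 (log2 2.12). RR2 and RR6 rose by 1.01 and 1.02. LOGL3 and LOGL9, of the family that activates cytokinin, fell by 2.40 and 1.87, and CKX11, a breakdown gene, by 1.77. With centring on bright probe sets, 4 cytokinin genes were higher. In the annotation ARF10, ARF16, IAA1 and OPR7 each name 2 genes, and the other gene of each name had 0.22, 0.43, -0.94 and 0.01.

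Of 9 bright gibberellin genes, GID1, which encodes the receptor, fell by 1.21. Of 24 bright jasmonate genes, 4 were higher (16.7%) and 1 lower (4.17%). JAZ8, a repressor of jasmonate responses, had 12.40, 12.38 and 12.38 in H1493HT and 10.38, 10.52 and 10.48 in H1493LT, a decrease of 1.93 (standard error 0.08, limma adjusted p = 4.9e-07). OPR1 and OPR7 of the oxophytodienoate reductase family rose by 1.73 and 1.03, and the lipoxygenase gene LOX5 by 1.38. JAZ2, counted among the 4 higher genes, rose by 1.44 but was below 6 in both H1493 groups. It was bright only through TGMS-Co27, where it averaged 8.97 and 11.33 at high and low temperature. JAZ1 had 0.60.

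Metabolic lists showed a few large changes against mostly small ones. Of 32 bright genes of sucrose and starch, 5 were higher and 4 lower. The sucrose synthase gene SUS4 had 11.20, 11.19 and 11.12 in H1493HT and 7.98, 7.99 and 7.99 in H1493LT, a 9.08-fold decrease (log2 -3.18, standard error 0.14, limma adjusted p = 7.8e-07), whereas SUS1 had 0.83, and 1.13 with another probe set, which passed the call. The cell wall invertase gene CIN2 had 9.77, 9.92 and 9.80 and then 12.10, 12.00 and 12.04 (log2 2.22). SUS4 was thus lower and CIN2 higher, both of which encode enzymes that cleave sucrose. The starch synthase genes SS2 and SS1 differed in direction, with 1.36 and -1.29.

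Of 42 bright cell wall genes, 7 were higher (16.7%) and 1 lower. Besides BC1L9, the expansin family genes EXLA4, EXP2, EXPB3 and EXP29 rose by 2.36, 1.81, 1.40 and 1.12 and the cellulose synthase-like gene CSLD4 by 1.76, while EXLA3 fell by 1.03, which was under the limit without H1493HT replicate 3 or H1493LT replicate 2 or 3. Of 55 bright peroxidase and redox genes, 10 were lower (18.2%) and 2 higher. The superoxide dismutase gene SodCc2 had 13.56, 13.72 and 13.68 and then 11.11, 11.18 and 11.08 (log2 -2.53, standard error 0.08, limma adjusted p = 2.7e-07). CATB and CATA, catalase genes, fell by 1.33 and 1.09, and the glutaredoxin genes GRXC10, GRXC15, GRXC7 and GRXS1 by 1.97, 1.75, 1.39 and 1.06. PRXIIE-2, a peroxiredoxin gene, rose by 2.12.

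Of 9 bright sulfur assimilation genes, the serine acetyltransferase genes SAT4, SAT1, SAT2 and SAT5, which act at the first step of cysteine synthesis, fell by 2.74, 1.67, 1.31 and 1.19. SAT1 had 12.39, 12.56 and 12.60 in H1493HT and 10.89, 10.86 and 10.80 in H1493LT. APR-like1 was the only member of this list called higher, and the other APR-like genes had values from -0.97 to -0.49. Of 18 bright aquaporin genes, TIP3, PIP2;2 and TIP4;1 fell by 3.33, 2.26 and 1.72, and 0 rose. PIP2;2, a plasma membrane water channel gene, had 11.07, 11.19 and 11.35 and then 8.97, 8.81 and 9.05. Of 5 bright lipid transfer genes, LTP fell by 2.23. Of 14 bright phenylpropanoid genes, PAL06 and CAD3 rose by 3.59 and 1.79 and CAD8C fell by 1.01, a difference that was under the 2-fold limit without H1493HT replicate 2 or 3 or H1493LT replicate 1.

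In the remaining lists small numbers of genes were called, some of them from lists with few bright members. Of 24 bright cytosolic ribosomal protein genes, CL27 rose by 1.38 and CL18 fell by 1.10, and other probe sets of CL27 gave 1.04, which passed the call, and 1.14, which did not (limma adjusted p = 0.10). Of 19 bright RNA silencing genes, the Dicer-like genes DCL2A and DCL4 rose by 1.32 and 1.12 and SHL2, which encodes an RNA-dependent RNA polymerase, fell by 1.32. Of 6 bright splicing genes, the U2AF small subunit gene C3H60 rose by 1.62. The single bright histone gene, H2B, had 0.34 (limma adjusted p = 0.054), the alternative oxidase gene AOX1 had -0.70, and of 3 bright WRKY genes WRKY71 rose by 1.47. Of 26 genes often used as references, 2 were higher and 1 lower, with ACT2 at 1.52, NEDD8 at 1.12 (a second gene of that name had -0.29) and TUB8 at -1.58. The medians of the flowering, D-type cyclin, floral organ, gibberellin, jasmonate, cell wall, redox, sucrose and starch, phenylpropanoid, WRKY and reference lists lay between -0.16 and 0.06 and changed sign with the scaling or, for some, with the arrays or probe sets used.

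**Figure D4:**
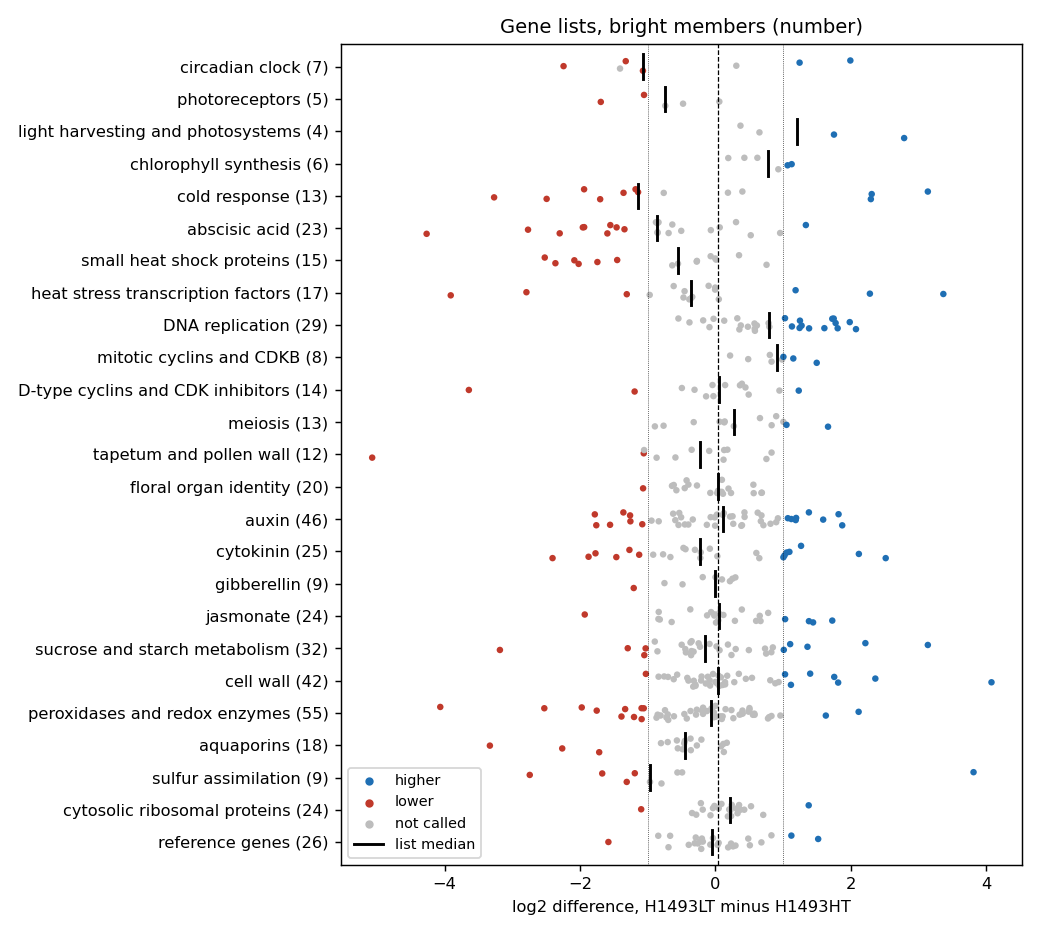
Log2 difference between H1493LT and H1493HT (horizontal axis) for the bright members of 25 gene lists, 1 point a gene, in color where called, with the number of members in parentheses, black bars at the list medians, dotted lines at a 2-fold difference and a dashed line at the median of all bright genes (0.05). Points of DNA replication lie mostly to the right of 0 and those of abscisic acid and the small heat shock proteins mostly to the left.

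For few of the probe sets called in H1493 was a different response called in TGMS-Co27. The difference between the lines in their response, an interaction term in limma, was called (adjusted p under 0.05 and at least 1 on the log2 scale) for 123 of the 4910 bright probe sets called in H1493 (2.51%), against 1.11% of all bright ones. A p that misses the threshold does not show that responses were alike. LHY and GI went in the same direction in both lines but by less in H1493: LHY rose by 1.99 in H1493 and 3.14 in TGMS-Co27, and GI had -2.24 and -3.30. CAB2R and TPP1 also rose less in H1493, by 2.79 against 4.15 and by 3.14 against 4.96, and so did WRKY71, by 1.47 against 3.23. HSFA2C rose more in H1493, by 2.28 against 1.13. The temperature at which the lines lay further apart varied by gene. LHY averaged 11.97 in H1493HT and 10.80 in Co27HT, but 13.96 in H1493LT and 13.94 in Co27LT. GI averaged 12.77 in H1493HT and 13.01 in Co27HT, and 10.52 in H1493LT and 9.71 in Co27LT.

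Other stress genes differed in sign or were called in 1 line. HSFA3 had -1.31 in H1493 and 0.77 in TGMS-Co27, an interaction of -2.08 (limma adjusted p = 0.00098). DREB1B had -1.94 and 0.27, an interaction of -2.20 (limma adjusted p = 0.013). Its value in TGMS-Co27 alone had a limma adjusted p of 0.42, so its sign there is not settled. TPP7 had 0.19 in H1493, with groups that overlapped, and 2.48 in TGMS-Co27, an interaction of -2.29 (limma adjusted p = 0.00059). HSFA3 and DREB1B were thus called lower in H1493, and TPP7 called higher in TGMS-Co27. Ugp1, which encodes UDP-glucose pyrophosphorylase, had 0.21 in H1493 (limma adjusted p = 0.075), and LOC_Os01g01660, a gene annotated as isoflavone reductase, rose by 2.12 in H1493 and had 0.17 in TGMS-Co27.

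**Figure D5:**
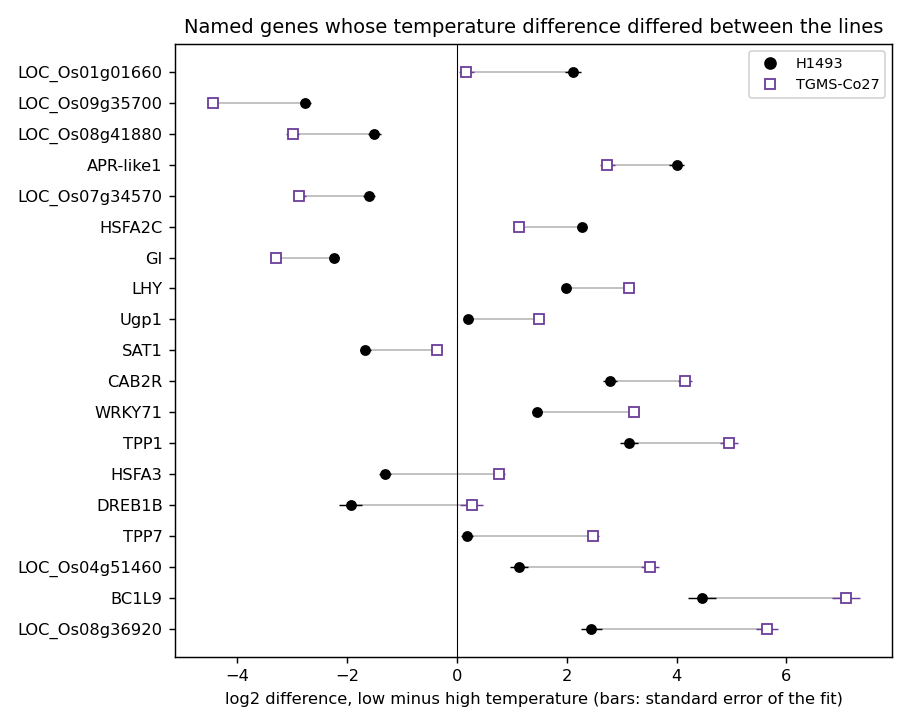
Log2 difference between low and high temperature in H1493 (black circles) and TGMS-Co27 (open squares), with the standard error of the fit, for the named genes with a called interaction. HSFA3 and DREB1B lie below 0 in H1493 and above it in TGMS-Co27, where DREB1B had a limma adjusted p of 0.42. LHY, GI, CAB2R and TPP1 lie nearer to 0 in H1493 than in TGMS-Co27.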

How the data were processed

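Meiosis-stage florets of H1493 and TGMS-Co27 at high and low temperature were hybridised to 12 Affymetrix rice arrays, 3 biological replicates per group. The authors deposited log2 signals and detection calls (made with MAS5, per the labels), and all arrays shared the same trimmed mean on the linear scale. The labels call the replicates biological without naming their plants, so p-values measure the spread between these samples, which may be technical in part. The number of arrays limits the precision.

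Group means of all 12 arrays were fitted with limma 3.58.1 in R 4.3.3, with Benjamini-Hochberg adjustment over 57258 probe sets (123 control probe sets left out). The contrasts were H1493LT minus H1493HT and its difference from that in TGMS-Co27. Standard errors are those of the moderated fit. Calls needed an adjusted p under 0.05 and a 2-fold difference, and were counted where the log2 signal averaged 6 or more. An exact permutation test of 3 against 3 arrays cannot go below 0.1 and was not used.

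Of all probe sets, 22436 had 1 gene in the platform annotation (95 several, 34727 none), and names came from RefSeq records. The genes named were the 15 with the largest differences in each direction among bright probe sets with 1 described gene and groups that did not overlap, up to 4 members per list with the largest differences and its brightest member not called, up to 5 interactions in each direction, Ugp1 and the floret markers. Further list members were named after their values were seen. The members and lists were chosen with earlier results of these data known. Where the study's tables gave a description of a probe set, only that wording was taken from them. Markers of pollen and root matched no named gene. The scripts were tested on simulated data. Alternatives changed the threshold, low-signal filter, scaling, floor, variance model, probe sets, arrays and the replicate block.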

Additional observations from a re-analysis of the deposited data

Results flagged for a closer look

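The temperature response of 19 named genes differed between H1493 and TGMS-Co27 by the interaction term of limma (adjusted p under 0.05 and at least 1 in size on the log2 scale). Values below are the H1493 response minus the TGMS-Co27 response, on the log2 scale. Both responses were increases but smaller in H1493 for BC1L9 (-2.62, and -1.96 for its second probe set), LOC_Os08g36920, an AP2 domain gene (-3.20), LOC_Os04g51460, a glycosyl hydrolase family 16 gene (-2.39), TPP1 (-1.82), WRKY71 (-1.76), CAB2R (-1.37) and LHY (-1.15). Those of APR-like1 (1.27), HSFA2C (1.15) and LOC_Os01g01660 (1.95) were more positive in H1493. Decreases were smaller in H1493 for LOC_Os09g35700, a lipid transfer protein family gene (1.68), LOC_Os08g41880 (1.49), LOC_Os07g34570 (1.27) and GI (1.06). A second, brighter probe set of LOC_Os09g35700 had -0.21 in H1493, so its response depends on the probe set.

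The difference was -2.29 for TPP7, -2.20 for DREB1B, -2.08 for HSFA3, -1.30 for SAT1 and -1.29 for Ugp1, the gene cosuppressed in TGMS-Co27. The Ugp1 signal of TGMS-Co27 may include transgene RNA, and the part of this was not tested.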

How the results depend on the processing

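Counts of called bright probe sets stayed within 1.5 times of the values given under every alternative tried. Leaving out 1 H1493 array gave 2378 to 2716 higher and 2355 to 2436 lower probe sets. The count of probe sets with a different response in TGMS-Co27, 123, was 200 with limma-trend and robust moderation and 82 to 109 without 1 array. Same-numbered H1493HT and H1493LT arrays did not deviate together (correlations 0.0149, 0.0099 and -0.0241). Whether they shared any handling is not given in the sources used here. With the replicate number as a block, 2455 probe sets were higher, 2404 lower and 65 differed between the lines. Of 196 named probe sets, between 6 and 9 lost the adjusted p when 1 array was left out, and 15 with only the 6 H1493 arrays fitted.

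The sign turned in another probe set of the same gene for HSP18.0 (1.36), RSZ21a (0.60), LTP2-B (0.12), PAL (0.15), RBCS-C (0.0848) and GLUA-2 (1.73), and with quantile normalization for RPS21 (0.0077). The cause was not tested. For PAL, at -0.95, the other bright probe sets gave -1.17, -1.72 and -2.06, all past the call. Signals near background limit the sizes: 298 called probe sets were below 6 on average in H1493HT and 403 in H1493LT.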
